A study of Mus musculus with 12 samples.

Results

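Transcript levels of 10 genes that make, degrade or sense prostaglandins and leukotrienes were followed in spinal cord cells sorted as microglia through the course of a relapsing autoimmune disease. The 10 genes are Ptgs1, Ptgs2, Ptges, Hpgds, Hpgd and Ptger4 on the prostaglandin side and Alox5, Alox5ap, Lta4h and Ltc4s on the leukotriene side, taken by symbol from 48526 gene IDs. The set was chosen by measured values, the loss of Hpgd counts in the libraries of diseased mice, so Hpgd is described here without a test. Of the 10, 8 passed the filter on low counts, and Ptgs2 and Ptges did not.

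All mice were of the strain Biozzi ABH. The groups were 3 control mice and 3 mice each in the acute, remission and chronic phases of crEAE, chronic-relapsing experimental autoimmune encephalomyelitis, an induced attack of the immune system on the central nervous system. Per the labels, spinal cord cells were gated for CD11b, for an intermediate amount of CD45 and for lack of Ly-6C. The labels give no age, sex or time in days, and do not say whether the control mice received an adjuvant.

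Prostaglandins and leukotrienes are short-lived lipid signals made from arachidonic acid that phospholipases cut from membranes. Cyclooxygenases, encoded by Ptgs1 and Ptgs2, start the prostaglandin branch, and terminal synthases set which prostaglandin leaves the cell, PGD2 with Hpgds and PGE2 with Ptges. The dehydrogenase encoded by Hpgd oxidises and so inactivates prostaglandins, and Ptger4 encodes the EP4 receptor for PGE2. On the other branch 5-lipoxygenase (Alox5), handed its substrate by the membrane protein FLAP (Alox5ap), makes leukotriene A4, which the hydrolase Lta4h turns into the chemoattractant LTB4 and the synthase Ltc4s into the first of the cysteinyl leukotrienes. In the brain and spinal cord, Hpgds and Ptgs1 are known as genes of microglia, and in other tissues Hpgds, Alox5 and Ltc4s are also known from mast cells.

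The stretch before the start of 4 members is shown because these genes had lower levels in acute than in control libraries and hold the run of letters described next. Ltc4s was also lower in acute libraries, does not hold it and is not shown. Each is the 250 bases upstream of the RefSeq start on the build GRCm38.p6, written 5′ to 3′ on the strand of the gene. Ptgs1 lies on the plus strand at chr2:36230176-36230425, Hpgds on the minus strand at chr6:65144731-65144980, Hpgd on the plus strand at chr8:56294302-56294551 and Alox5 on the minus strand at chr6:116461179-116461428. Capitals mark the letters GAGGAA, or TTCCTC where they lie on the other strand, the core bound by PU.1, the master transcription factor of myeloid cells.
Ptgs1: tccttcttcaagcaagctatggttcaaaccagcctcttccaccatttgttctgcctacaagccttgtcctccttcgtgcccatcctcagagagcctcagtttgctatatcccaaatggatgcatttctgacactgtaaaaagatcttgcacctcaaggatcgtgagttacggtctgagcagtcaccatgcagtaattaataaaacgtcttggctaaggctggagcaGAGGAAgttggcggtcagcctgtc
Hpgds: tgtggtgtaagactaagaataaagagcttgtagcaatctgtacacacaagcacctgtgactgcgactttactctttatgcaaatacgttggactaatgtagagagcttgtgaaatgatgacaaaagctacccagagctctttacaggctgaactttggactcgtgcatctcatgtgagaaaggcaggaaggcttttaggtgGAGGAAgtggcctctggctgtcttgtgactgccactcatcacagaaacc
Hpgd: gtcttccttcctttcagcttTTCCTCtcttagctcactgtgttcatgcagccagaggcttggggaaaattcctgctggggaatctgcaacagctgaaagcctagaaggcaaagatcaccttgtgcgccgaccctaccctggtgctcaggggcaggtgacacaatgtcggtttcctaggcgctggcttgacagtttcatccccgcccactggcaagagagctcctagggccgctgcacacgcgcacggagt
Alox5: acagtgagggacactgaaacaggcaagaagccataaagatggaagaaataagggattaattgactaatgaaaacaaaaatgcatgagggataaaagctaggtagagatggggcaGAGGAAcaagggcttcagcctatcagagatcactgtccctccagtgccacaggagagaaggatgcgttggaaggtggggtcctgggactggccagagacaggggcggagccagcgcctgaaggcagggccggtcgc
The core was found in 7 of the 9 members with an entry, against 23.4% of 32536 windows of the same length over all genes. Counted back from the start, its first base lay at -24 in Ptgs1, -49 in Hpgds, -136 in Alox5 and -230 in Hpgd. Ptgs2, Ptges and Lta4h also held it, and Ptger4 and Ltc4s did not. The Sp1 letters GGGCGG were found in 5 of 9 members against 33.0% of windows, the C/EBP letters TTNNGCAA in 2 of 9 against 9.57%, and an NF-kB motif in 0 of 9 against 0.36%, with both strands searched and no match of these motifs overlapping a PU.1 core. A match is a run of letters and not a binding site, and Alox5ap had no entry.

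Total counts ran from 3992885 to 5712376 per library, but 6 features took 48.3 to 64.1% of them, so 1266782 to 2496096 counts remained for other genes and set the precision. Levels are given as CPM, counts scaled to library size, here with trimmed-mean-of-M (TMM) factors. Acute libraries stood apart in their cell type markers, and markers of cells other than microglia went against the labelled cell type there. The 10 monocyte and recruited macrophage markers summed to 1517 to 2261 CPM there, against 8.535 to 42.1 in control, 8.23 to 18.6 in remission and 11.7 to 29.1 in chronic libraries, with Ly6c2, Chil3 and F10 at 0 counts in control. Ly6c2, a gene of the antigen that the gate excluded, was at 42.7 to 76.5 CPM in acute libraries. The 10 resting microglia markers summed to 6509 to 7368 CPM in control and to 999 to 1733 in acute libraries, and stood at 4777 to 4817 in remission and 4433 to 4897 in chronic libraries. The 10 T and NK cell markers summed to 48.6 to 80.9 CPM in acute libraries and to at most 3.51 elsewhere. The 10 mast cell and basophil markers summed to 16.3 to 39.1 CPM in acute and to at most 2.3 in other libraries. Most of the acute sum was Hdc, at 5.71, 6.39 and 29.6 CPM, and Kit, at 9.34, 8.79 and 3.85. The mast cell protease genes Cma1, Mcpt4, Tpsb2 and Tpsab1 had 0 counts in every library. The 10 neutrophil markers summed to 265 to 548 CPM in acute and to 302 to 513 in other libraries, but the sum hides opposite moves. Csf3r, which made up most of it outside the acute phase, was at 394 CPM in control and 141 in acute libraries, while 8 of 9 tested neutrophil markers were called higher in the acute phase, such as S100a9 from 0 to 57.1 CPM, Ngp from 0.392 to 33.2 and Ltf from 0 to 32.0. Remission replicate 1 also held Ltf at 18.6, Ngp at 11.3, S100a9 at 9.41 and Lcn2 at 5.54 CPM. In the other remission libraries these genes were at most at 0.797 CPM. The 7 border macrophage markers summed to 70.8 to 117 CPM in acute libraries and to at most 2.39 elsewhere. Most of the acute sum was F13a1, at a mean of 82.3 CPM, while Lyve1 had 0 counts in every library. In acute libraries Pf4, Cd163 and Cbr2 were at 0.274, 0.652 and 0.185 CPM. The 5 astrocyte markers summed to 142 to 174 CPM in acute and 45.8 to 57.8 in control libraries. Their sums were 84.7 to 142 in remission and 105 to 199 in chronic libraries, overlapping the acute range. Gfap was highest in acute libraries, at 84.9 CPM, and Slc1a3 in chronic ones, at 127 against 44.4 in acute. The 7 oligodendrocyte markers summed to 447 to 582 CPM in acute and 86.8 to 110 in control libraries, with 5 of 7 called higher, and to 700 in remission replicate 1, against 71.4 and 141 in the other remission libraries. How much of any acute difference below went with these other cells was not tested, and in bulk samples fewer cells of a type and less RNA per cell cannot be told apart.

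**Figure D1:**
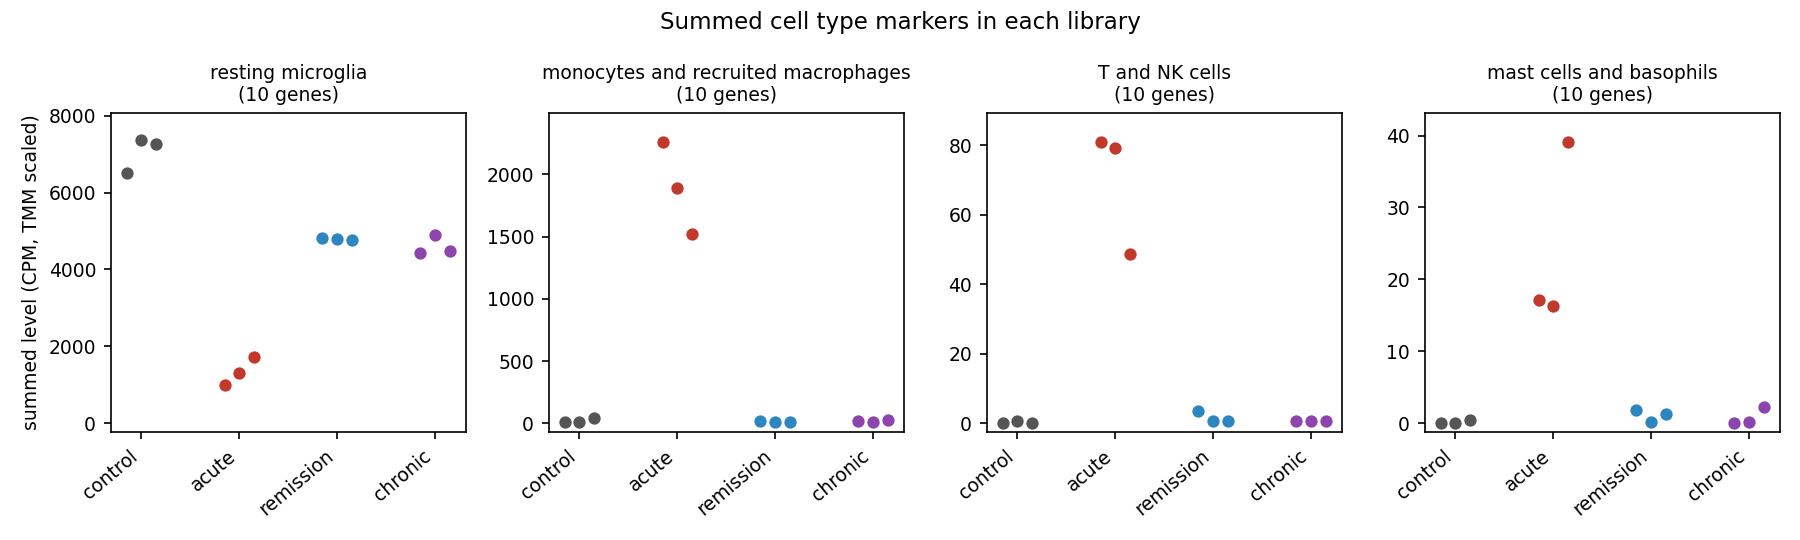
Summed level of 4 lists of cell type markers (vertical axis, CPM after TMM scaling, linear) in each of the 12 libraries, coloured by group along the horizontal axis, 1 point per library. The sums of monocyte, T and NK cell, and mast cell and basophil markers are highest in the 3 acute libraries. Most of the acute mast cell and basophil sum is Hdc and Kit. Resting microglia markers stand lowest in acute libraries, at 999 to 1733 CPM.

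Against the control libraries, the acute phase was the one in which most members moved. Of the 7 members tested there, 2 were called higher and 4 lower at an adjusted p under 0.05, in a comparison where 23.7% of 12545 genes were called higher and 20% lower. The median log2 fold change of the 7 was -1.16, against 0.02 over all genes. In remission 1 was higher and 2 lower, where 6.06% and 3.25% of genes were, and the medians were -0.28 and 0.01. In the chronic phase 1 was higher and 1 lower, where 9.57% and 5.17% of genes were, and the medians were -0.29 and -0.01. Unless said otherwise, each adjusted p comes from the quasi-likelihood test of edgeR, corrected over all 12545 genes by the Benjamini-Hochberg method.

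**Figure D2:**
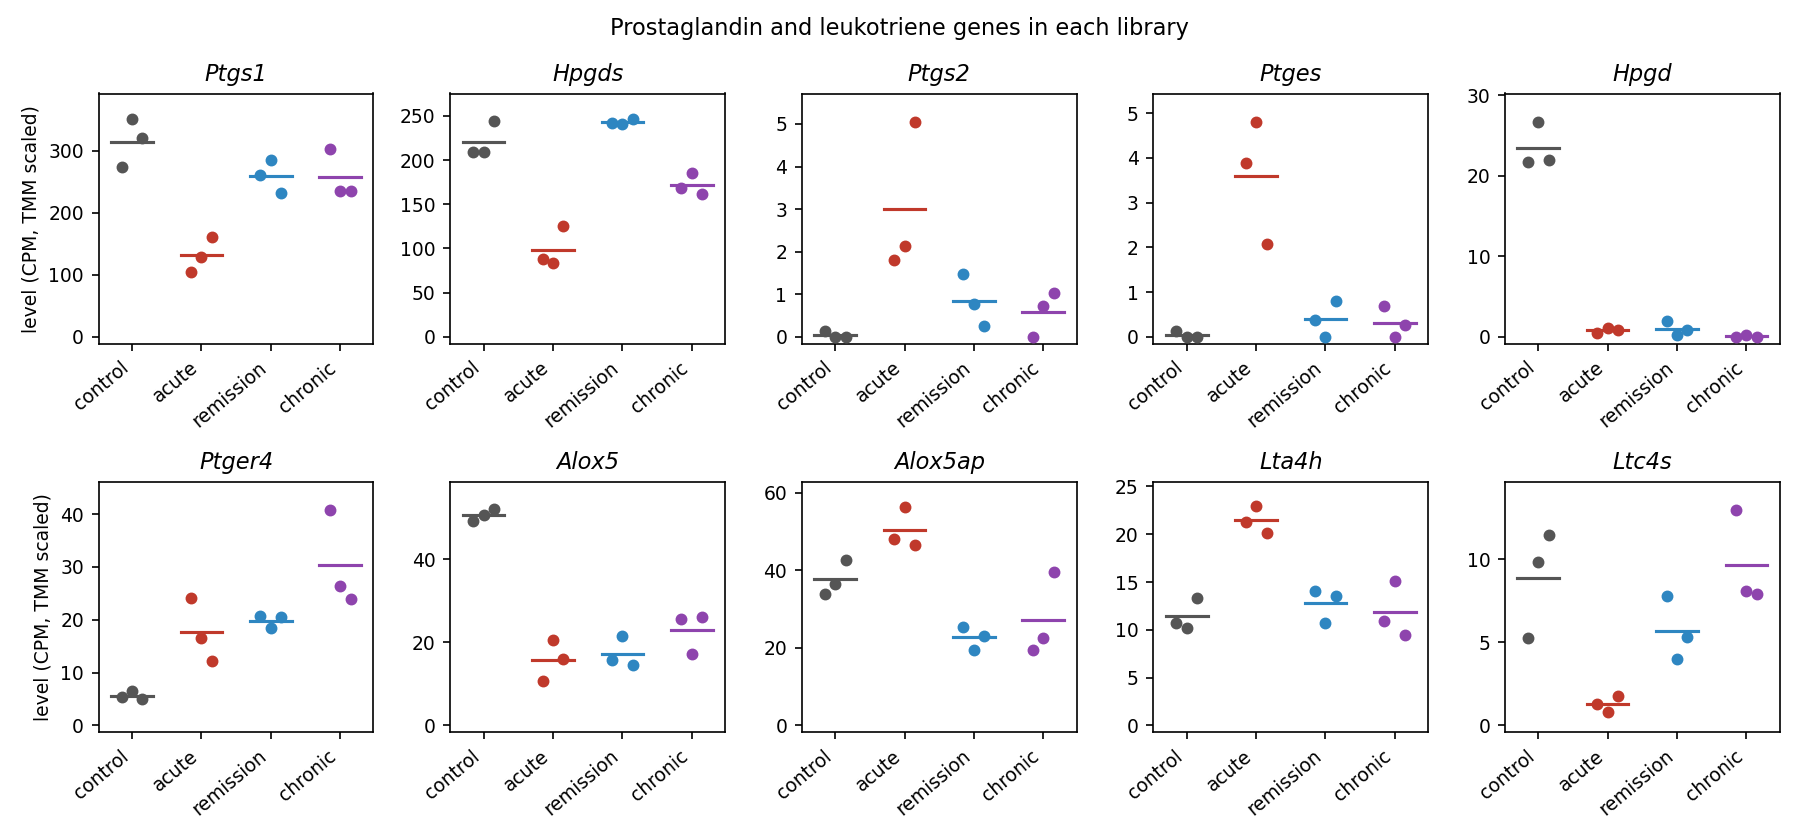
Level of each of the 10 genes (vertical axes, CPM after TMM scaling, linear, each gene on its own scale) in the 12 libraries, with 3 points per group and a bar at the group mean. Ptgs1, Hpgds and Ltc4s are lowest in acute libraries, Alox5 and Hpgd are low in all 3 disease groups, and Ptger4 is high in all 3.

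The first enzyme of the prostaglandin branch, Ptgs1, fell in the acute phase and was back near its control level afterwards. Ptgs1 (ENSMUSG00000047250) lies on chromosome 2 from 36230426 to 36252272 on GRCm38. Its level was 274, 351 and 320 CPM in control, 104, 129 and 162 in acute, 261, 286 and 233 in remission and 303, 235 and 235 in chronic libraries. Every acute library was below every library of the other groups. The fall in the acute phase was 1.26 on the log2 scale (0.16 SE), with adjusted p 1.86e-06. The differences from control in remission (-0.28, adjusted p 0.316) and in the chronic phase (-0.29, adjusted p 0.239) did not pass the test. With library totals in place of TMM factors the chronic difference passed (-0.63, adjusted p 0.00952). The rise from the acute phase was 0.98 in remission (adjusted p 5.71e-05) and 0.97 in the chronic phase (adjusted p 9.75e-05).

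Hpgds, the hematopoietic synthase of PGD2, moved in the same way at the same time. Hpgds (ENSMUSG00000029919), on chromosome 6 from 65117293 to 65144908, was measured at 209, 209 and 244 CPM in control and at 87.7, 83.4 and 125 in acute libraries, without overlap. It fell by 1.16 on the log2 scale (0.14 SE, adjusted p 1.46e-06). In remission the 3 libraries lay close together at 243, 241 and 247 CPM, 1.302 above the acute phase (adjusted p 6.85e-07) and 0.14 from control (adjusted p 0.612). In chronic libraries it stood at 168, 185 and 162 CPM, below every control and remission library, and 0.80 above the acute phase (adjusted p 0.000244). The chronic difference from remission, -0.50, did not pass (adjusted p 0.0769) and passed in 4 of 20 alternatives, with adjusted p between 0.0115 and 0.23 over all of them. The chronic difference from control, -0.36, likewise did not pass (adjusted p 0.0927) and passed in 3 of 20.

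The inducible pair of the PGE2 route, Ptgs2 and Ptges, was counted in few reads. Ptgs2 (ENSMUSG00000032487), on chromosome 1 from 150100031 to 150108227, had 1, 0 and 0 counts in control, 7, 8 and 17 in acute, 8, 4 and 1 in remission and 0, 4 and 4 in chronic libraries. Ptges (ENSMUSG00000050737), on chromosome 2 from 30889471 to 30929863, had 1, 0 and 0 counts in control, 15, 18 and 7 in acute, 2, 0 and 3 in remission and 3, 0 and 1 in chronic libraries. For both genes, every acute library was above every control library. Pooled over the 3 libraries of a group and scaled to library size, Ptgs2 was 50.6 times its control level in the acute phase, with an exact 95% counting interval of 8.455 to 2061, and Ptges 63.3 times, with an interval of 10.7 to 2561. Such intervals rest on a single control count and cover counting error only. When the filter was left off, edgeR's quasi-likelihood test gave adjusted p 2.56e-05 for Ptgs2 and 9.31e-06 for Ptges in the acute phase against control. In the same unfiltered fit, Ptges was lower in remission (adjusted p 0.00352) and in the chronic phase (adjusted p 0.00249) than in the acute phase, and Ptgs2 lower in the chronic phase (adjusted p 0.0467) but not past the threshold in remission (adjusted p 0.139). That fit also gave Ptgs1 an adjusted p of 5.48e-21 in the acute phase against control, in place of 1.86e-06. For Alox5ap it gave 0.103 in place of 0.0986. Its values are therefore not on the scale of the main fit and are given as a description. An exact permutation test of 3 libraries against 3 cannot go below 0.10 and was not used for these genes.

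Hpgd (ENSMUSG00000031613), the prostaglandin-inactivating dehydrogenase on chromosome 8 from 56294585 to 56321043, was the gene by which the set was chosen. Control libraries held 153, 152 and 102 counts, or 21.8, 26.6 and 22.01 CPM. Acute libraries held 2, 4 and 3 counts, remission libraries 11, 1 and 3 and chronic libraries 0, 1 and 0. The highest library of a diseased mouse was remission replicate 1, at 2.03 CPM, far below the lowest control library. Pooled counts put the control level at 28.6 times that of the acute phase (95% counting interval 14.9 to 63.0), 22.5 times that of remission (13.5 to 40.6) and 325 times that of the chronic phase (58.0 to 12880), the last resting on 1 chronic count. From the acute phase to remission its fitted log2 difference was 0.32, and -0.81 without remission replicate 1, so that no direction held between these 2 phases.

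Ptger4, the EP4 receptor gene, was the only tested member called higher than control in every phase. Ptger4 (ENSMUSG00000039942), on chromosome 15 from 5206661 to 5244187, stood at 5.41, 6.48 and 4.96 CPM in control, 24.1, 16.5 and 12.2 in the acute phase, 20.7, 18.4 and 20.5 in remission and 40.9, 26.5 and 23.97 in chronic libraries. Each library of a diseased mouse was above each control library. The rise over control was 1.65 on the log2 scale in the acute phase (adjusted p 3.87e-05), 1.81 in remission (adjusted p 7.49e-05) and 2.43 in the chronic phase (adjusted p 1.06e-06). It was 0.78 higher in the chronic than in the acute phase (adjusted p 0.0161), a call that ended without acute replicate 2 (0.0608), acute replicate 3 (0.0802) or chronic replicate 1 (0.11). Chronic against remission gave 0.62 (adjusted p 0.185). Of its exonic length, 15.3% is shared with the antisense gene Gm15937, and the library kit kept no strand.

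**Figure D3:**
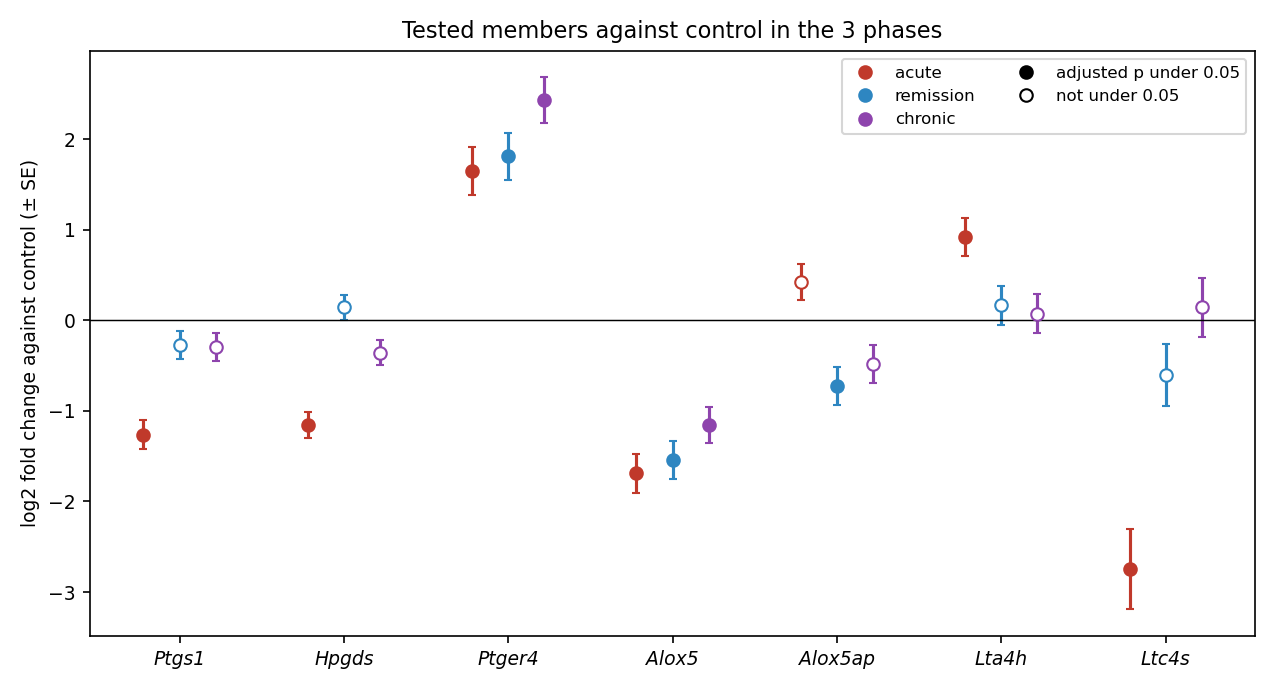
Log2 fold change against control (vertical axis) of the 7 tested members in the acute, remission and chronic phases, with bars of 1 SE from edgeR and filled points for adjusted p under 0.05. Ptger4 is filled and positive in all 3 phases, at 1.65 to 2.43, and Alox5 is filled and negative in all 3, at -1.69 to -1.15.

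On the leukotriene side, Alox5, encoding 5-lipoxygenase, was lower in every phase. Alox5 (ENSMUSG00000025701), on chromosome 6 from 116410077 to 116461178, had a narrow range of 49.4, 50.6 and 52.2 CPM in control libraries. It stood at 10.6, 20.5 and 16.0 CPM in acute, 15.9, 21.4 and 14.6 in remission and 25.7, 17.1 and 26.0 in chronic libraries, all below the control range. Its fall was 1.69 on the log2 scale in the acute phase (0.21 SE, adjusted p 2.35e-06), 1.54 in remission (adjusted p 3.89e-05) and 1.15 in the chronic phase (adjusted p 0.000427). Between phases, remission against acute gave 0.15 (adjusted p 0.643) and chronic against acute 0.54 (adjusted p 0.0803), and the latter passed in 4 of 20 alternatives, 2 of which left out acute replicate 2 (0.0263) or chronic replicate 2 (0.0306).

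Its partner Alox5ap had another course. Alox5ap (ENSMUSG00000060063), on chromosome 5 from 149264767 to 149288153, stood at 33.9, 36.5 and 42.7 CPM in control, 48.0, 56.2 and 46.5 in acute, 25.5, 19.5 and 23.1 in remission and 19.3, 22.5 and 39.5 in chronic libraries. Every acute library was above every other library. Against control the acute difference of 0.42 did not pass (adjusted p 0.0986), passed in 3 of 20 alternatives and was -0.13 with library totals. In remission the gene was lower than in control by a log2 difference of -0.73 (adjusted p 0.0315), and this call was lost on leaving out control replicate 1 (0.0507), 2 (0.0823) or 3 (0.134) or remission replicate 2 (0.109) or 3 (0.0788). It was lower in remission than in the acute phase, by -1.15 (adjusted p 0.000278), and lower in the chronic phase than in the acute phase, by -0.90 (adjusted p 0.00289). Chronic replicate 3, at 39.5 CPM, lay inside the control range, and the chronic difference from control was -0.48 with it (adjusted p 0.135) and -0.84 without it (adjusted p 0.00251). Exons shared with antisense Gm19719 make up 13.3% of its length.

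The 2 enzymes that divide leukotriene A4 between them moved in opposite directions in the acute phase. Lta4h (ENSMUSG00000015889), on chromosome 10 from 93453411 to 93484875, stood at 10.7, 10.2 and 13.4 CPM in control and 21.3, 22.9 and 20.2 in acute libraries. It rose by 0.92 on the log2 scale (adjusted p 0.00136), or 0.37 with library totals (adjusted p 0.194). In remission it was at 14.0, 10.7 and 13.6 CPM and in the chronic phase at 10.9, 15.1 and 9.44, both overlapping control. It was lower than in the acute phase by -0.75 in remission (adjusted p 0.00828; 0.055 without remission replicate 2 and 0.145 with library totals) and by -0.84 in the chronic phase (adjusted p 0.00521). Ltc4s (ENSMUSG00000020377), on chromosome 11 from 50236461 to 50238616, stood at 5.26, 9.81 and 11.4 CPM in control and at 1.3, 0.80 and 1.78 in acute libraries. Its fall of 2.75 (0.44 SE, adjusted p 3.82e-05) was the widest among the 7 tested members in that comparison. Ltc4s was measured at 7.75, 4.02 and 5.31 CPM in remission and 12.9, 8.10 and 7.91 in the chronic phase, above every acute library, and rose from the acute phase by 2.14 (adjusted p 0.00108) and 2.89 (adjusted p 5.09e-05). Neither phase differed from control by the test (-0.61, adjusted p 0.321, and 0.14, adjusted p 0.838), and 26.4% of the exonic length of Ltc4s is shared with antisense Gm26542.

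Levels per kilobase of exon set different genes side by side only roughly. The length was that of all annotated exons of a gene, not of the transcripts present in these cells. By this measure Ptgs1 led in control libraries with 81.2 ± 10.01 CPM per kb (SD, n = 3), followed by Hpgds with 34.3 ± 3.17, Alox5ap with 26.5 ± 3.21, Hpgd with 13.95 ± 1.63, Alox5 with 12.4 ± 0.349, Ltc4s with 8.72 ± 3.16, Lta4h with 1.87 ± 0.283 and Ptger4 with 0.845 ± 0.118. Hpgd and Alox5 were the neighbours in that order within 1 SD of each other. In acute libraries the order of the levels per kb was another one. Alox5ap, at 35.4 ± 3.68, and Ptgs1, at 33.9 ± 7.395, could not be told apart by their spread, and Hpgds followed at 15.4 ± 3.596. Alox5 (3.83 ± 1.21), Lta4h (3.52 ± 0.227) and Ptger4 (2.65 ± 0.911) overlapped within 1 SD. Ltc4s (1.27 ± 0.483), Ptges (0.912 ± 0.353), Ptgs2 (0.654 ± 0.388) and Hpgd (0.49 ± 0.166) came last. In chronic libraries Ptgs1 (66.3 ± 10.1) and Hpgds (26.7 ± 1.86) led again, with Alox5ap at 19.1 ± 7.66, Ltc4s at 9.52 ± 2.81, Alox5 at 5.58 ± 1.23 and Ptger4 at 4.58 ± 1.37. Remission had the same genes in front, Ptgs1 at 67.0 ± 6.86, Hpgds at 37.9 ± 0.461 and Alox5ap at 16.0 ± 2.11.

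The direct comparisons between phases separated the acute phase from the later ones. From the acute phase to remission, 3 of the 7 tested members were called higher and 2 lower, where 17.6% and 19.4% of all genes were, with medians of 0.16 and -0.01. From the acute to the chronic phase 4 were higher and 2 lower, where 13.3% and 15.5% of genes were, with medians of 0.78 and 0.00. Between remission and the chronic phase edgeR called 0 of 7, where 0.941% of genes were called higher and 0.263% lower. At an unadjusted p under 0.05 that last comparison counted 3 members, DESeq2 called 1 and limma-voom 0. Alox5 and Ptger4 were called against control in all 3 phases. Ptgs1, Hpgds, Ltc4s and Lta4h were called against control in the acute phase, and both later phases were called against the acute one.

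The other genes of the pathway, 61 in a list of enzymes, carriers and receptors, were set beside the members. Of these 32 could be tested, and 6 had 0 counts in every library. In the acute phase 9 were higher and 9 lower than in control, where 23.7% and 20% of all tested genes were. In remission 3 were higher and 3 lower, where 6.06% and 3.25% were, and in the chronic phase 5 and 2, where 9.57% and 5.17% were. From the acute phase to remission 7 rose and 11 fell, where 17.6% and 19.4% of all genes did, and to the chronic phase 7 rose and 6 fell, where 13.3% and 15.5% did. Between remission and the chronic phase 0 of 32 were called by edgeR, 5 at an unadjusted p under 0.05 and 2 by DESeq2. Faah, Ptger2, Dpep2, Cyp4f18, Ltb4r1 and Fpr2 passed the filter on low counts only through their acute libraries. Their calls as higher in the acute phase, and as lower after it, were thus in part set by the filter. The shares over all genes come from the same filter.

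Of 11 tested genes that release or handle arachidonic acid, 5 fell and 1 rose in the acute phase, in which 20% of all tested genes were lower and 23.7% higher. Pla2g15, a lysosomal phospholipase, went from 219 to 60.7 CPM (log2 fold change -1.86, adjusted p 0.000335). Daglb, the diacylglycerol lipase of myeloid cells, went from 164 to 81.8 CPM (-1.01, adjusted p 6.46e-06), Dagla from 38.8 to 13.8 (-1.50, adjusted p 3.05e-07) and Mgll, which splits the product of both to arachidonate, from 16.5 to 5.28 (-1.64, adjusted p 0.000127). All 4 were higher again in remission than in the acute phase. The fifth, Lpcat3 (-0.50, adjusted p 0.0186), lost its call without acute replicate 2 (0.0897) or control replicate 3 (0.0821), and Daglb shares 24.1% of its exonic length with Rac1 on the other strand. The gene that rose was Faah, an amidase of lipid amides, with 1 count in control libraries and 7.12 CPM in acute ones (adjusted p 5.91e-05). Faah passed the filter on low counts only through its acute libraries, so its call was in part set by that filter. Pla2g4a, the cytosolic phospholipase that feeds both branches, was tested and called in none of the 6 comparisons. In remission Pla2g6 was higher (0.75, adjusted p 0.0205) and Acsl4 lower (-0.63, adjusted p 0.0114), the first lost in 6 of 20 alternatives and the second without control replicate 2 (0.0906).

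Among the other synthases, Tbxas1, thromboxane synthase, moved as Ptgs1 did. It stood at 140, 174 and 142 CPM in control and 55.5, 82.1 and 78.6 in acute libraries, a fall of 1.079 (adjusted p 6.42e-06), and rose again by 0.88 in remission (adjusted p 0.000112) and by 0.78 in the chronic phase (adjusted p 0.00051). Akr1b3, an aldose reductase that can form prostaglandin F, rose in the chronic phase from 19.2 to 37.2 CPM (0.95, adjusted p 0.000612). Its acute value (0.45, adjusted p 0.0489) was lost in 14 alternatives and was -0.12 in 1 more, with library totals. Abcc4, which carries PGE2 out of cells, was higher in every phase, with 2.50 CPM in control libraries, 18 in the acute phase, 8.64 in remission and 11.1 in the chronic phase (2.81, 1.75 and 2.12, adjusted p 3.15e-07, 0.00089 and 6.3e-05).

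Of the 8 other prostanoid receptors 2 could be tested, and in the acute phase 1 was higher and 1 lower. Ptger2, which encodes the second receptor for PGE2 that raises cyclic AMP beside EP4, had 0 counts in all 3 control libraries. It was at 8.82, 7.73 and 6.52 CPM in acute libraries, at least 44.8-fold over a floor of 3 counts in the control group, and at least 8.84-fold over it in remission and 10.4-fold in the chronic phase (adjusted p 9.89e-07, 0.0015 and 0.000593). Ptger2 passed the filter on low counts only through its acute libraries, so its acute call was in part set by that filter. Ptger1, another PGE2 receptor gene, was lower in the acute phase, at 43.1 CPM against 54.2 in control (-0.33, adjusted p 0.0423), a call lost in 8 of 20 alternatives, and its counts are uncertain because the kit kept no strand.

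Genes that act on leukotrienes after the members split in the same 2 ways. Cysltr1, the receptor for cysteinyl leukotrienes, was at 45.2, 40.3 and 49.4 CPM in control and between 12.3 and 21.4 in all 9 libraries of diseased mice. It fell by 1.38, 1.31 and 1.45 on the log2 scale in acute, remission and chronic mice (adjusted p 6.29e-06, 6.63e-05 and 1.31e-05). Ggt5, which trims LTC4 to LTD4, fell by 2.08, 1.33 and 0.96 in the same order (adjusted p 1.33e-07, 9.7e-05 and 0.00143). Others were high in the acute phase. Cyp4f18, which degrades LTB4, had 0 counts in control and 22.2 to 25.2 CPM in acute libraries, at least 138-fold over the floor. In the chronic phase Cyp4f18 was also called higher than control, with 24 counts and a mean of 1.87 CPM. Dpep2, a dipeptidase of LTD4, went from 0.558 CPM in control to 14.8 in acute libraries. The Dpep2 entry measured shares 37.3% of its exonic length with another entry of that symbol on the same strand. Ltb4r1, the receptor for LTB4, had 3 counts in control and 0 in remission libraries and reached 7.41 to 8.56 CPM in acute ones, and Fpr2, a formyl peptide and lipoxin receptor, reached 24.6 to 52.1 CPM from 0 counts. These 4 genes (adjusted p 7.42e-09, 6.8e-07, 7.35e-06 and 0.000137) are known from neutrophils and monocytes. All 4 passed the filter on low counts only through their acute libraries, so their acute calls were in part set by that filter. In the same acute libraries 10 of 10 monocyte markers and 8 of 9 tested neutrophil markers were called higher than in control, and their part in these values was not tested. Cotl1, which binds 5-lipoxygenase, rose in the acute phase (0.94, adjusted p 1.11e-05) and in the chronic phase (0.84, adjusted p 0.000151).

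**Figure D4:**
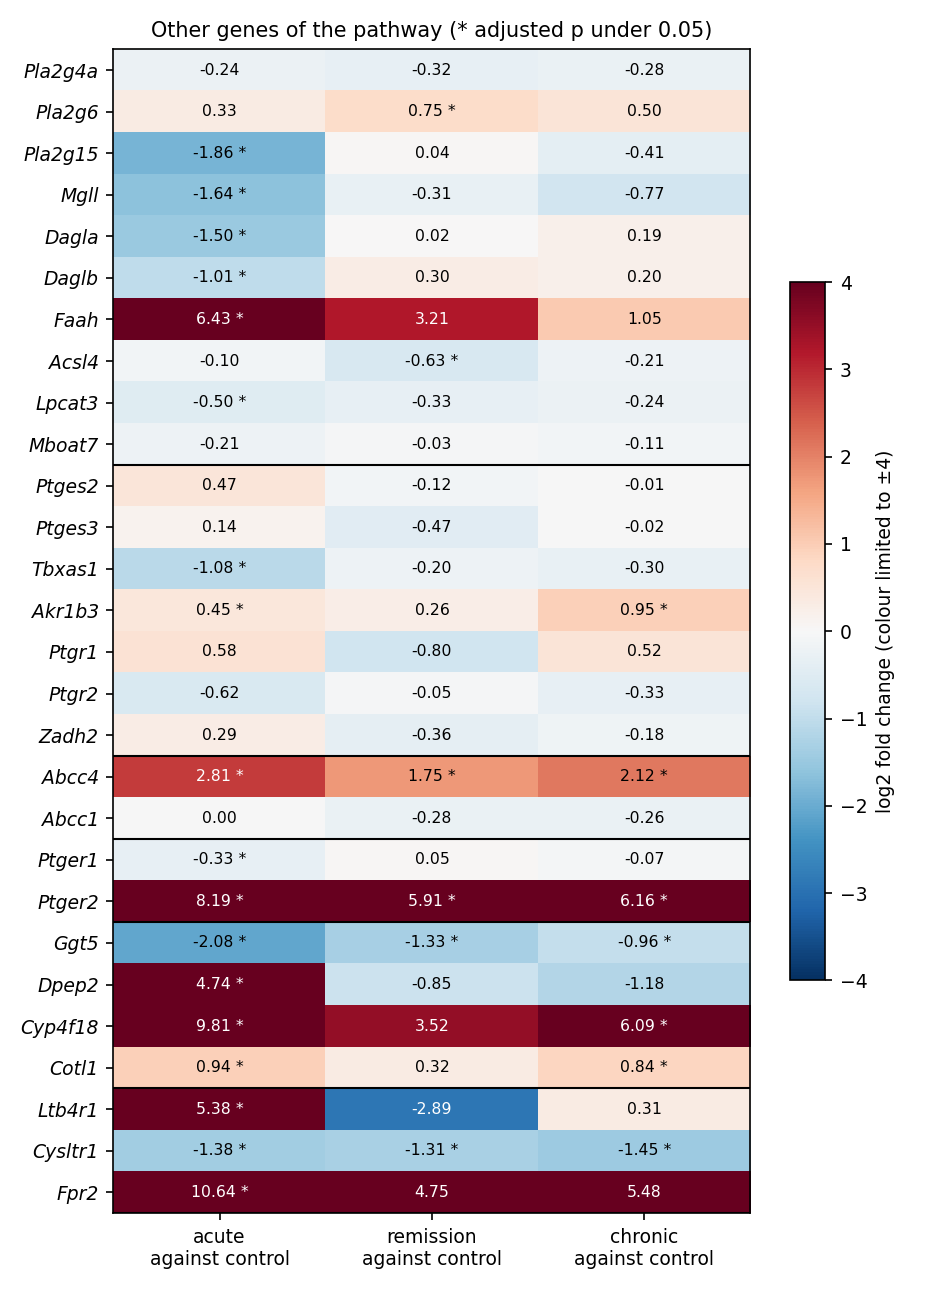
Fitted log2 fold changes against control (columns are the 3 phases) of the 28 other pathway genes that were named, ordered by role with lines between roles, and colour limited to 4 in either direction. Stars mark adjusted p under 0.05, and values of genes with 0 or few control counts (Ptger2, Cyp4f18, Fpr2, Faah, Ltb4r1) depend on the prior count of the fit.

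Over the 12 libraries, the genes whose log2 levels ran most like those of 3 members were looked up among 10676 tested genes. Predicted genes, pseudogenes and mitochondrially encoded genes were left out of this search. For Hpgd these were Sema4b (Pearson's r 0.958), Zfp827 (0.955), Evi5 (0.954), Cysltr1 (0.948) and Cmtm6 (0.921). Sema4b was at 24.8 CPM in control and 5.90, 3.34 and 1.39 in acute, remission and chronic libraries, and Zfp827 at 12.2 and 1.299, 2.33 and 0.657. For Ptgs1 they were Man2a2 (0.980), Slco2b1 (0.977), Sparc (0.973), Efnb1 (0.972, from 8.91 to 1.23 CPM in the acute phase) and Cables1 (0.971). Slco2b1 is itself a carrier of organic anions and is known, with Sparc, from resting microglia. For Alox5ap they were Lbr (0.969), Cnn2 (0.966), Myo1g (0.954) and Smpdl3b (0.951), all highest in the acute phase. These are descriptions of 12 libraries that share 4 groups, so that any gene following the groups ranks high.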

How the data were processed

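Per the labels' protocols, RNA was reverse transcribed with random hexamers, made into libraries with a transposase kit that keeps no strand and sequenced as single reads of 75 bases on 1 flow cell. The values that the authors deposited are raw counts of reads per gene. Per the submitters' processing notes they used HISAT2, SAMtools 1.3.1, Picard 2.6.4, HTSeq 0.6.1 and GRCm38, and the annotation release and counting settings are not given in the sources used here. The 12 single tables equalled the columns of the merged table. GENCODE M21 gave symbols to 48144 of 48526 IDs, and the other 382 held 0.02078% of counts.

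The 10 members and all lists were chosen with earlier results of these data known. Named were all members, other pathway genes of at least 5 CPM in a group, or called and of at least 2 CPM, and the 5 genes most like each of Hpgd, Ptgs1 and Alox5ap. Of these, 1 gene is not reported here. With edgeR 4.0.16 in R 4.3.3, filterByExpr left 12545 genes, and a robust quasi-likelihood fit over 12 libraries and 4 groups with TMM factors tested 6 comparisons with Benjamini-Hochberg adjustment. Replicate numbers are the order of the records and pair no mice. Replicates differed beyond counting noise (chi-square per degree of freedom 4.40 to 12.7), and each is 1 mouse per the series design.

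Floors are 3 counts over a group, which is 0.173 CPM for control, 0.273 for acute, 0.208 for remission and 0.216 for chronic mice. Intervals are exact 95% counting intervals of pooled counts. Floors and intervals cover counting error only, since reads carried no molecular identifiers. Likeness used log2(CPM + 0.5) and left out predicted genes, pseudogenes and mitochondrially encoded genes. Alternatives were DESeq2 1.42.0, its size factors, library totals, limma-voom (limma 3.58.1) with quality weights, no filter, a fit of only the groups compared, the number in the title as a covariate, leaving out the 6 top features and mitochondrial genes, and leaving out each library. Promoter windows came from the RefSeq table of GRCm38.p6, which held 9 of 10 members.

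Of 10 motifs searched on both strands, the AP-1 letters TGANTCA (in 6.73% of windows), the cyclic AMP element TGACGTCA (1.56%) and the shorter TGACG that it contains (17.9%), an interferon response motif (2.98%), the E-box CACGTG (6.04%) and TATAAA (12.3%) were in 0 of 9.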

Additional observations from a re-analysis of the deposited data

Results flagged for a closer look

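For 6 members, the direct test between phases showed that 2 phases differed in their distance from the same control libraries. Each value is a log2 difference from edgeR's quasi-likelihood fit, with the later phase minus the acute phase. In remission these were 0.985 for Ptgs1, 1.302 for Hpgds and 2.139 for Ltc4s, and -1.147 for Alox5ap and -0.7513 for Lta4h. In the chronic phase they were 0.9695 for Ptgs1, 0.80 for Hpgds, 2.889 for Ltc4s and 0.7817 for Ptger4, and -0.9026 for Alox5ap and -0.8439 for Lta4h. Ptgs1, Hpgds and Ltc4s were thus lower, and Lta4h and Alox5ap higher, than in later phases in the same 3 libraries in which monocyte markers summed to 1517 to 2261 CPM. For Ptger4 the later phase stood farther from control than the acute phase. The part of other cells in these differences was not tested. No group had more than 3 libraries, so single libraries were not screened for standing apart.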

How the results depend on the processing

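No paired analysis was possible because the replicate numbers are the order of the records and pair no mice. Each tested result was refitted in 20 ways, 12 of which left out 1 library, except that 4 results of Ptger2, Cyp4f18 and Ptgr1 had a value in 19. The calls against control of Ptgs1, Hpgds, Alox5, Ltc4s and Ptger4 in the acute phase, and of Alox5 and Ptger4 in remission and the chronic phase, kept their direction and their side of the threshold in all 20, with log2 fold changes of -1.81 to -1.12, -1.72 to -1.05, -2.24 to -1.47, -3.27 to -2.5 and 1.09 to 1.84 in the acute phase. Library totals moved the median of all genes by -0.56 in the acute, -0.25 in the remission and -0.36 in the chronic comparison with control, by 0.31 and 0.19 in remission and chronic against acute and by -0.11 between chronic and remission. Higher calls were then 22.8, 32.6, 21.7, 71.2, 64.4 and 61.4% of all calls, against 54.3, 65.1, 64.9, 47.6, 46.3 and 78.2% in the same order with TMM factors. With library totals the count of genes called in the chronic phase against control rose from 1848 to 3241, of members from 2 to 5 and of other pathway genes from 7 to 14. Leaving out 1 library gave 757 (without control replicate 2) to 1312 genes called in remission against control, where 1168 were called with all, with 767 without control replicate 1, and 1216 (without control replicate 2) to 1927 in the chronic phase against control. The 151 genes called between remission and the chronic phase became 385 with DESeq2, 54 with limma-voom, 828 with no filter and 26 with only the 2 groups, and between 17 without remission replicate 3 and 283 without remission replicate 2. There the count of members went from 0 to 1 (Hpgds, lower) with DESeq2, with no filter, with the title number and without acute replicate 3, and that of other pathway genes from 0 to 2 with DESeq2, 4 with no filter, 2 without the top features, and 1 to 2 on leaving out 1 library. The title number as a covariate took the chronic against acute count from 3610 to 2402 genes.

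Values that did not pass the test changed sign in places. With library totals these were Alox5ap (-0.13 in the acute phase), Hpgds (-0.0985 in remission), Lta4h (-0.0803 in remission and -0.28 in chronic) and Ltc4s (-0.18 in chronic) against control, and Akr1b3 in the acute phase (-0.12), which had passed. With limma-voom they were Hpgd in remission against acute (-0.33) and Lta4h in chronic against remission (0.0124). Leaving out 1 library at a time gave ranges over 0 for 8 values. In the chronic phase against control these were -0.13 to 0.36 for Ltc4s and -0.16 to 0.21 for Lta4h. In remission against acute they were -0.81 (without remission replicate 1) to 0.87 for Hpgd, -0.0361 to 0.46 for Ptger4 and -0.0756 to 0.39 for Alox5. In chronic against remission they were -0.14 to 0.0563 for Ptgs1, -0.11 to 0.44 for Alox5ap and -0.32 to 0.0424 for Lta4h. The cause of these shifts was not tested. Few counts limited the precision of Ptgs2, Ptges and Hpgd in diseased mice. Their libraries held 0 to 17 counts of Ptgs2, 0 to 18 of Ptges and 0 to 11 of Hpgd, while control libraries held 102 to 153 of Hpgd.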
